A study of Mus musculus with 6 samples.

Results

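Leukocytes leave the blood by rolling on selectins and then arresting through integrins that bind ICAM and VCAM proteins on the vessel wall, and 9 genes of this machinery were followed in subcutaneous mouse colon tumors. They were the endothelial ligands Icam1, Icam2 and Vcam1, the integrin subunits Itgal, Itgb2 and Itga4, the endothelial selectins Sele and Selp, and the selectin ligand Selplg. They were taken by gene symbol and make up 9 of the 55487 genes in the count table. Icam1 had also been displayed by the study from RNA-seq of this experiment, so its direction is not independent evidence. The legends of the study's RNA-seq panels give fewer IFN-γ tumors than the 3 used here and do not say which were shown.

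The tumors were CT26.WT, a colon carcinoma line of BALB/c mice, grown under the skin of immunocompetent male BALB/c mice that were 4 weeks old. The IFN-γ group was injected through the tail vein at intervals of 48 h with 100 µL of IFN-γ at 100 ng/ml, and PBS was the injection of the control group. Each group had 3 tumors, collected once they had reached the size endpoint, and each tumor gave 1 RNA-seq library of 15759300 to 17559680 counts. The labels do not state that each tumor came from a different mouse, so the p-values measure the spread between these tumors. Whole tumors mix the injected cells with host cells, and a host leukocyte, an endothelial cell and a carcinoma cell all add to the same count. Of 10 markers of colon epithelium and its carcinomas, 4 had enough counts to be tested, Cdx2 was at 0 in every tumor, and Krt20 stood at 113 to 271 CPM, counts relative to the size of the library. Levels are CPM scaled by TMM, a normalization that evens out library composition.

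Rolling is started by P-selectin and E-selectin on activated endothelium, which hold the sialylated sugar chains of PSGL-1, the product of Selplg, on passing leukocytes. Chemokine signals then open the integrins αLβ2 (LFA-1, from Itgal and Itgb2) and α4β1 (VLA-4, from Itga4 and Itgb1), which bind ICAM-1 and ICAM-2 and VCAM-1, respectively. IFN-γ acts on many genes through DNA sites called GAS elements, and Icam1 is a textbook example of a gene induced by it.

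Promoter sequence was looked up because several of these genes are known targets of inflammatory transcription factors. A RefSeq window around the start of transcription was used for Icam1, Itga4, Sele and Selp. Icam2, Vcam1, Itgal, Itgb2 and Selplg were not in the table used. The 250 bases before the start are shown 5′ to 3′ on the plus strand of GRCm38.p6 for the 3 genes with a motif match, with the matched bases in capitals. They lie at chr9:21015690-21015939 for Icam1, chr1:164047984-164048233 for Sele and chr1:164115014-164115263 for Selp.
Icam1: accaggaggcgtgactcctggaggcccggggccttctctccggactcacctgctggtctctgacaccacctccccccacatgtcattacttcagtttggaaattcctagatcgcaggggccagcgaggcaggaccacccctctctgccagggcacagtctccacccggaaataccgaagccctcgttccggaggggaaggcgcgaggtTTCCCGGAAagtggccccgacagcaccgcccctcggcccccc
Sele: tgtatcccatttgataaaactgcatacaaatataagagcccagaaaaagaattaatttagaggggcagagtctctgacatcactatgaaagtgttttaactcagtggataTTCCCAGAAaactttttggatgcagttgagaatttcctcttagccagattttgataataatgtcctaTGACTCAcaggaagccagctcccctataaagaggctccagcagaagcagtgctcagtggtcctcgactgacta
Selp: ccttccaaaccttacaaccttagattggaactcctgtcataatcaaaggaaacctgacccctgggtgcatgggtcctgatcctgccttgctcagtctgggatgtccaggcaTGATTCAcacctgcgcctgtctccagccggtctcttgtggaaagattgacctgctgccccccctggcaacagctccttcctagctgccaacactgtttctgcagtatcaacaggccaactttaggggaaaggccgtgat
The GAS pattern TTCNNNGAA, which reads the same on both strands, was matched in Icam1 by TTCCCGGAA at positions -42 to -34 and in Sele by TTCCCAGAA at -140 to -132, counted from the RefSeq start of transcription, which for Icam1 lies 5′ of the GENCODE gene start. The AP-1 pattern TGANTCA was matched in Sele by TGACTCA at -73 to -67 and in Selp by TGATTCA at -139 to -133. No match overlapped another. Among 32851 RefSeq windows of 300 bases, 8.3% held the GAS pattern and 7.81% the AP-1 pattern on either strand. The interferon element ISRE (GAAA, any 2 bases, GAAA), the NF-κB consensus and the ETS pattern CGGAAG were also searched on both strands and were found in 3.44%, 8.46% and 16.9% of windows. None of these 3 was matched in the 4 windows, and the Itga4 window matched none of the 5 patterns. Only full matches to a pattern were counted, so a window with none can still hold a site that differs from the pattern. A match is a run of letters and was not tested for binding.

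IFN-γ tumor 3 stood apart from the other treated tumors in its IFN-γ response genes. Over 21 genes of the IFN-γ response, the summed level was 2139 to 3507 CPM among controls. It was 5724 CPM in IFN-γ tumor 1, 5932 CPM in tumor 2 and 2609 CPM in tumor 3. None of the 21 passed the test with all 6 tumors and 16 rose when IFN-γ tumor 3 was left out, beside 2.46% of all genes. Results are given with and without that tumor. Leaving it out was decided with its levels known and favors genes that follow the IFN-γ response, so calls made without it are not independent of that choice.

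In all 6 tumors, 0 of the 9 adhesion genes passed an adjusted p of 0.05 in edgeR's quasi-likelihood test, against 17 of 15114 genes tested, or 0.112%. At an unadjusted p under 0.05 there were 3 of the 9, against 10.2% of genes: Vcam1 was higher (5.74% of genes) and Sele and Selp were lower (4.44%). By limma-voom 0 of the 9 passed, with 0.086% of all genes called. DESeq2 called Sele and Selp lower, with 1.33% of genes called and 0.509% called lower, as did edgeR with no filter on low counts, with 0.819% called and 0.261% called lower. When IFN-γ tumor 3 was left out, edgeR called 5 of the 9, against 3.18% of 15487 genes. Icam1, Itga4 and Selplg rose (2.46% of genes) and Sele and Selp fell (0.723%). The median log2 fold change of the 9 genes was 0.35 with all 6 tumors and 0.50 without IFN-γ tumor 3, and over all genes tested it was 0.00 and -0.02. Other tumors mattered as well: log2 fold changes dropped to 0.32 for Icam1, 0.40 for Itgal and 0.18 for Selplg without IFN-γ tumor 2, to 0.32 for Itga4 without IFN-γ tumor 1 and to 0.21 for Itgb2 without control tumor 1.

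**Figure D1:**
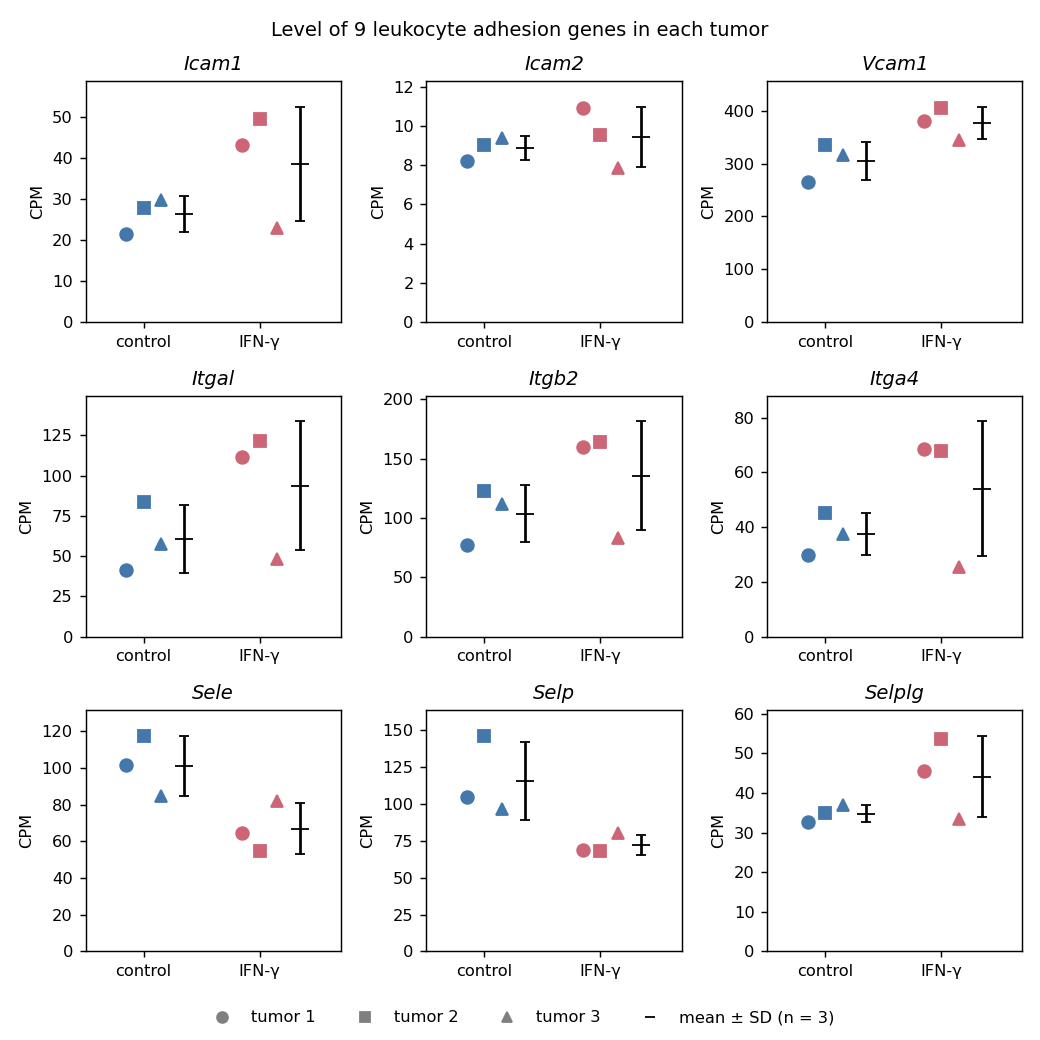
Level of each of the 9 genes in each tumor, in CPM, with control tumors in blue, IFN-γ tumors in red, a symbol for the tumor number and the mean ± SD (n = 3) beside each group. IFN-γ tumors 1 and 2 lie above every control for 7 genes, and all 3 IFN-γ tumors lie below every control for Sele and Selp.

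The pattern by tumor was shared by most of the genes. IFN-γ tumors 1 and 2 were above every control for 7 of the 9 genes, all but the 2 selectins, as they were for 18.1% of genes tested. IFN-γ tumor 3 lay within the control range for Icam1, Itgal, Itgb2 and Selplg, a pattern seen in 4 of the 9 genes and in 6.21% of all genes tested. It lay below every control for Icam2 and Itga4, and above them for Vcam1. The groups did not overlap for 3 of the 9 genes, against 15.1% of genes tested: Vcam1 was higher (7.62%) and Sele and Selp were lower (7.5%).

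The immunoglobulin-family ligands were described first. Icam1, the cytokine-inducible ligand of LFA-1 and Mac-1, lies on chromosome 9 (GRCm38 chr9:21015985-21028817, plus strand). Its level was 21.5, 27.9 and 29.9 CPM in control tumors 1, 2 and 3 and 43.3, 49.6 and 22.9 CPM in IFN-γ tumors 1, 2 and 3. IFN-γ tumors 1 and 2 were above all controls and IFN-γ tumor 3 was next to the lowest control, so the groups overlapped. The means were 26.4 ± 4.37 and 38.6 ± 13.97 CPM (SD, n = 3), a log2 fold change of 0.55 ± 0.26 (SE, edgeR adjusted p = 0.53). Icam1 rose without IFN-γ tumor 3, by 0.80 ± 0.14 on the log2 scale (SE, edgeR adjusted p = 0.024). The antisense gene Gm47079 shares 511 exonic bases with Icam1 but held 8 counts in all tumors.

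Icam2, a ligand of LFA-1 that resting endothelium carries constitutively, lies on chromosome 11 (chr11:106377656-106388075, minus strand). It was the lowest of the 9 genes in CPM, with 8.19, 9.02 and 9.37 CPM in the controls and 10.9, 9.53 and 7.85 CPM in the IFN-γ tumors. The highest and the lowest level were both in the IFN-γ group. The log2 fold change was 0.09 ± 0.17 (SE, edgeR adjusted p = 0.90), and 0.20 ± 0.16 without IFN-γ tumor 3 (SE, edgeR adjusted p = 0.62). Leaving out IFN-γ tumor 1 instead turned it to -0.03.

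Vcam1, the ligand of VLA-4 on inflamed endothelium and also on some stromal cells and macrophages, lies on chromosome 3 (chr3:116109949-116129688, minus strand). It stood at 266, 335 and 316 CPM in the controls and at 381, 405 and 345 CPM in the IFN-γ tumors. All 3 IFN-γ tumors were above all controls, IFN-γ tumor 3 included, although it exceeded control 2 by little. The means were 305 ± 35.9 and 377 ± 30.1 CPM (SD, n = 3), and the log2 fold change of 0.30 ± 0.11 did not pass the adjusted test (SE, edgeR adjusted p = 0.39). With IFN-γ tumor 3 left out it was 0.36 ± 0.11 (SE, edgeR adjusted p = 0.12).

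**Figure D2:**
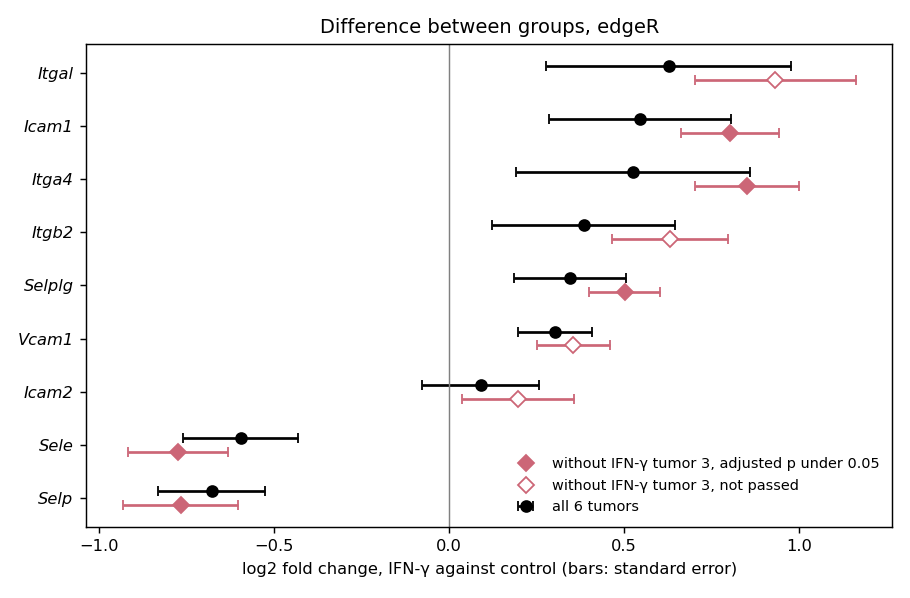
log2 fold change, IFN-γ against control, of each of the 9 genes from edgeR with all 6 tumors and without IFN-γ tumor 3, with bars of 1 SE. Filled diamonds passed an adjusted p of 0.05 without that tumor and open ones did not. Sele and Selp are negative in both fits, and the other 7 are positive in both and larger without that tumor.

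Among the integrin subunits, Itgal encodes the α chain of LFA-1, found on most leukocytes and abundant on T cells (chr7:127296260-127335138, plus strand). It stood at 41.2, 83.3 and 57.3 CPM in the controls and 112, 121 and 48.2 CPM in the IFN-γ tumors. IFN-γ tumors 1 and 2 were above control 2, the highest control, and IFN-γ tumor 3 lay between the lower controls. The log2 fold change was 0.63 ± 0.35 (SE, edgeR adjusted p = 0.59). Without IFN-γ tumor 3 it was 0.93 ± 0.23, the largest of the 9 in that fit, and it did not pass the threshold (SE, edgeR adjusted p = 0.074).

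Itgb2 encodes the β2 chain, CD18, that LFA-1 shares with Mac-1 (chr10:77530252-77565708, plus strand). It was at 77.0, 123 and 112 CPM in the controls and 160, 164 and 82.7 CPM in the IFN-γ tumors, the same order of tumors in the IFN-γ group as for Itgal. Its log2 fold change was 0.38 ± 0.26 (SE, edgeR adjusted p = 0.68), and 0.63 ± 0.17 without IFN-γ tumor 3 (SE, edgeR adjusted p = 0.090). Neither chain of LFA-1 passed the edgeR threshold in either fit.

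Itga4 encodes the α4 chain that pairs with β1 in VLA-4 and with β7 in the gut-homing receptor (chr2:79255426-79333123, plus strand). Its level was 29.8, 45.2 and 37.5 CPM in the controls and 68.4, 67.9 and 25.6 CPM in the IFN-γ tumors. The first 2 IFN-γ tumors were nearly level and above every control, and IFN-γ tumor 3 was the lowest of all 6. The log2 fold change was 0.53 ± 0.33 (SE, edgeR adjusted p = 0.65), and without IFN-γ tumor 3 Itga4 rose by 0.85 ± 0.15 on the log2 scale (SE, edgeR adjusted p = 0.024). Cerkl on the opposite strand shares 1124 exonic bases with it and held 49 counts in all tumors.

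The β chains that complete the α4 integrins had other patterns. Itgb1, the broadly expressed β1 chain, was at 834 to 902 CPM in the controls and 839 to 975 CPM in the IFN-γ tumors, giving a log2 fold change of 0.06. Itgb7, the β7 chain of lymphocytes and mast cells, was at 124 ± 2.70 CPM in the controls and 115 ± 17.0 CPM in the IFN-γ tumors (SD, n = 3), with a log2 fold change of -0.10 (edgeR adjusted p = 0.81). Neither passed the test.

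Levels of both endothelial selectins were lower in the IFN-γ tumors. Sele encodes E-selectin, made by endothelium after inflammatory stimulation (chr1:164048234-164057677, plus strand), and its upstream sequence with a GAS and an AP-1 match is given above. Its level was 101, 117 and 84.5 CPM in the controls and 64.3, 54.5 and 81.9 CPM in the IFN-γ tumors. All IFN-γ tumors were below all controls, with IFN-γ tumor 3 just under control 3. The means were 101 ± 16.4 and 66.9 ± 13.9 CPM (SD, n = 3), a log2 fold change of -0.60 ± 0.16 that did not pass edgeR's test (SE, edgeR adjusted p = 0.30). Sele fell without IFN-γ tumor 3, by 0.77 ± 0.14 on the log2 scale (SE, edgeR adjusted p = 0.027), and was called lower in all 6 tumors by DESeq2 (adjusted p = 0.034) and by edgeR with no filter on low counts (adjusted p = 0.023).

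Selp encodes P-selectin, which endothelium and platelets store in granules and move to the surface on activation (chr1:164115264-164150026, plus strand). It was at 105, 146 and 96.5 CPM in the controls and 69.0, 68.1 and 80.2 CPM in the IFN-γ tumors, again with every IFN-γ tumor below every control. The means were 116 ± 26.6 and 72.4 ± 6.76 CPM (SD, n = 3), and the log2 fold change was -0.68 ± 0.15 (SE, edgeR adjusted p = 0.23). Selp fell without IFN-γ tumor 3, by 0.77 ± 0.16 on the log2 scale (SE, edgeR adjusted p = 0.046). In all 6 tumors it passed with DESeq2 (adjusted p = 0.0040) and with edgeR with no filter on low counts (adjusted p = 0.0057). Control tumor 2 was the highest for both selectins, and without it the log2 fold change of Selp was -0.48.

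Endothelial and platelet markers were read beside the selectins. The summed level of 10 endothelial markers was 312 to 385 CPM in the controls and 253 to 344 CPM in the IFN-γ tumors, and 0 of the 10 passed edgeR's test in either fit. As for Sele and Selp, all IFN-γ tumors were below all controls for 3 of the 10, Cdh5, Kdr and Robo4 (7.5% of all genes tested), and the same 3 had an unadjusted edgeR p under 0.05 (4.44%). Their log2 fold changes were -0.39, -0.58 and -0.53, beside -0.60 for Sele and -0.68 for Selp. These 3 were the lowest of the 10 endothelial markers. The rest ran from -0.26 for Egfl7 to 0.47 for Vwf, and the median over all 10 was -0.22. Of 7 platelet and megakaryocyte markers, 4 had enough counts to be tested and none passed, and their summed level was 26.6 to 33.5 CPM in the controls and 21.2 to 28.8 CPM in the IFN-γ tumors. In bulk tumors, fewer cells of a type and less RNA per cell cannot be told apart, and the part of endothelial content in the lower selectin levels was not tested.

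Selplg, the gene of PSGL-1 on leukocytes, lies on chromosome 5 (chr5:113818536-113832644, minus strand). It was even in the controls, at 32.6, 34.8 and 36.9 CPM, and stood at 45.6, 53.6 and 33.3 CPM in the IFN-γ tumors. The levels in IFN-γ tumors 1 and 2 were above every control and that in IFN-γ tumor 3 was among them. The log2 fold change was 0.35 ± 0.16 (SE, edgeR adjusted p = 0.51), and Selplg rose by 0.50 ± 0.10 on the log2 scale without IFN-γ tumor 3 (SE, edgeR adjusted p = 0.038). Without that tumor, then, the selectin ligand rose while both selectins that bind it fell.

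Leukocyte markers were read beside the genes that leukocytes carry. The summed level of 8 pan-leukocyte markers was 997 to 1165 CPM in the controls and 1544, 1613 and 1030 CPM in IFN-γ tumors 1, 2 and 3. Of the 8, 0 were called in all 6 tumors and 5 were called higher without IFN-γ tumor 3, beside 2.46% of all genes. For 9 T cell markers the sums were 63.5 to 89.2 CPM and 115, 140 and 46.9 CPM, with 0 of 9 called in either fit. For 8 macrophage markers they were 1758 to 1931 CPM and 1829 to 2677 CPM. Of these 8, 5 were called higher without IFN-γ tumor 3, again beside 2.46% of all genes. Of 8 neutrophil markers 5 were tested and Ly6g had at most 3 counts in any tumor. The part of leukocyte content in the levels of Itgal, Itgb2, Itga4 and Selplg, and in those of Icam1 and Vcam1, was not tested. Adipocyte markers also differed between the groups: 7 of 8 were higher in every IFN-γ tumor than in every control, IFN-γ tumor 3 included, beside 7.62% of all genes tested. Their summed level was 169 to 206 CPM in the controls and 233 to 288 CPM in the IFN-γ tumors, and their part in the adhesion gene levels was not tested.

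Ratios within a tumor, with 0.5 CPM added to each level, set each gene against a partner subunit or a gene of cells known to carry it, which need not be the only ones. Ptprc, the CD45 antigen of leukocytes, served for the integrins and Selplg, and Cdh5, the VE-cadherin of endothelial junctions, for the ligands and selectins. Itgal relative to Itgb2 was 0.538, 0.681 and 0.516 for controls against 0.701, 0.741 and 0.585 after IFN-γ, with a mean log2 difference of 0.23 with overlapping groups (two-sided exact permutation p = 0.2). It was 0.15 without control tumor 3 and 0.35 without control tumor 2. With 3 tumors against 3 the smallest p this test can give is 0.1, so no ratio could pass 0.05.

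Relative to Ptprc, all 4 leukocyte genes had overlapping groups. Itgal to Ptprc was 0.315, 0.461 and 0.329 for controls against 0.444, 0.514 and 0.453 after IFN-γ, with a log2 difference of 0.37 (two-sided exact permutation p = 0.3). The log2 differences for Itgb2, Itga4 and Selplg were 0.14, 0.21 and 0.11, with two-sided exact permutation p-values of 0.3, 0.2 and 0.7. The Selplg ratio turned negative without IFN-γ tumor 3, at -0.09, and the Itgb2 ratio ran from 0.07 without IFN-γ tumor 3 to 0.21 without IFN-γ tumor 1. With the mean log2 level of the 8 pan-leukocyte markers in place of Ptprc, a reference chosen after the data were seen, the log2 differences were 0.22 for Itgal, -0.01 for Itgb2, 0.05 for Itga4 and -0.04 for Selplg. Itga4 to Itgb1 had the widest spread, with a log2 difference of 0.35 over all tumors, 0.07 leaving out IFN-γ tumor 2 and 0.87 leaving out IFN-γ tumor 3 (two-sided exact permutation p = 0.6 with all 6).

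Relative to Cdh5, the 3 immunoglobulin-family ligands were higher in every IFN-γ tumor than in every control. Icam1 to Cdh5 was 0.316, 0.309 and 0.368 for controls against 0.633, 0.832 and 0.411 after IFN-γ, with a log2 difference of 0.86. Icam2 to Cdh5 was 0.104 to 0.125 for controls against 0.147 to 0.167 after IFN-γ, with a log2 difference of 0.46. Vcam1 to Cdh5 was 3.65 to 3.83 for controls against 5.52 to 6.73 after IFN-γ, with a log2 difference of 0.69. IFN-γ tumor 3 was on the treated side in all 3 ratios, and its Icam1 ratio was the nearest to the controls. Each of the 3 gave a two-sided exact permutation p of 0.1, the smallest possible, and 0.367 after Benjamini-Hochberg adjustment over the 11 ratios. The 3 share Cdh5, whose own log2 fold change was -0.39 (edgeR adjusted p = 0.35), and are not separate evidence. Cdh5 itself was at 69.1, 91.4 and 82.2 CPM in the controls and 68.7, 59.7 and 56.3 CPM in the IFN-γ tumors. Every IFN-γ tumor was below every control for Cdh5, which raises any ratio to it. The share of all genes whose ratio to Cdh5 separates the groups was not computed. Cells other than endothelium add to the counts of these ligands, so the ratios are not levels per endothelial cell. No ratio of a ligand to a leukocyte gene was taken.

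Sele and Selp relative to Cdh5 had overlapping groups. Sele to Cdh5 was 1.47, 1.28 and 1.03 for controls against 0.936, 0.913 and 1.45 after IFN-γ, with a log2 difference of -0.21 (two-sided exact permutation p = 0.5). Selp to Cdh5 was 1.52, 1.60 and 1.17 against 1.004, 1.14 and 1.42, with a log2 difference of -0.27 (two-sided exact permutation p = 0.2). IFN-γ tumors 1 and 2 were below every control for both, and IFN-γ tumor 3 was within the control range. The Sele difference ran from -0.10 without control tumor 1 to -0.43 without IFN-γ tumor 3, and that of Selp from -0.16 without IFN-γ tumor 1 to -0.41 without IFN-γ tumor 3. With the mean log2 level of the 10 endothelial markers in place of Cdh5, a reference chosen after the data were seen, the log2 differences were -0.39 for Sele, -0.45 for Selp, 0.68 for Icam1, 0.28 for Icam2 and 0.51 for Vcam1.

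**Figure D3:**
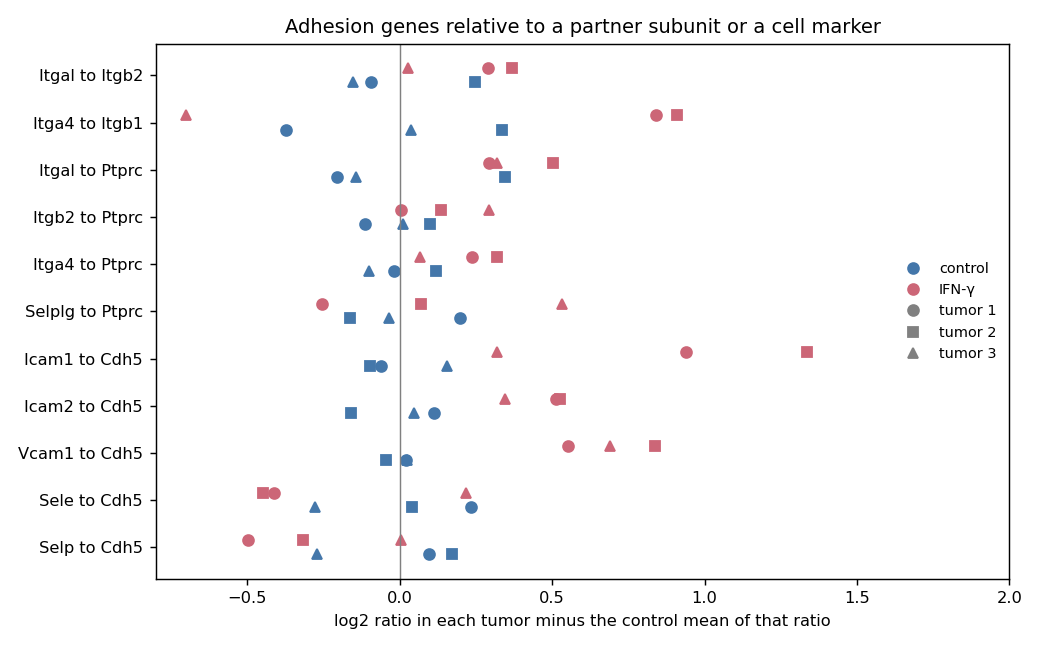
log2 ratio of each gene to a partner subunit or a cell marker in each tumor, minus the control mean of that ratio, with controls in blue, IFN-γ tumors in red and a symbol for the tumor number. All 3 IFN-γ tumors lie to the right of all controls for Icam1, Icam2 and Vcam1 relative to Cdh5, and the groups overlap in the other 8 ratios. Cdh5 itself was lower in every IFN-γ tumor than in every control.

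Per kilobase of exon, the order of the 9 genes was set by medians over the 6 tumors, in CPM per kb. It ran from Itgb2 at 38.4 and Vcam1 at 38.3 through Sele at 28.6 and Selp at 20.0 to Itgal at 10.7, Selplg at 8.40, Icam1 at 6.62, Icam2 at 4.83 and Itga4 at 2.96. The ranges of every pair of neighbors in this order overlapped. Sele exceeded Selp in 6 of 6 tumors and Itgb2 exceeded Vcam1 in 4 of 6. The median of Sele was above that of each of the 10 endothelial markers, of which Plvap was the highest at 23.4 CPM per kb and Vwf the lowest at 0.185. Exon length was the union over all annotated transcripts, which lowers the value of a gene with long minor transcripts.

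The rest of the adhesion cascade was read from 5 lists that hold 73 other genes, of which 65 had enough counts to be tested. In all 6 tumors 0 of the 65 passed edgeR's test, with 14 at an unadjusted p under 0.05 (10.2% of all genes tested). Of these 5 were higher (5.74% of all genes) and 9 lower (4.44%). DESeq2 called 1 higher and 2 lower, with 1.33% of all genes called. Without IFN-γ tumor 3 edgeR called 2 higher and 2 lower, beside 2.46% and 0.723% of all genes. The median log2 fold change of the 65 was -0.01 with all 6 tumors and 0.00 without that tumor, beside 0.35 and 0.50 for the 9 genes described first and 0.00 and -0.02 for all genes tested.

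Of 12 other leukocyte integrin subunits 11 were tested and none passed in either fit, with a median log2 fold change of -0.07. Itgam, the α chain of Mac-1, was at 33.4, 32.0 and 40.7 CPM in the controls and 49.2, 44.8 and 42.9 CPM in the IFN-γ tumors, giving a log2 fold change of 0.37 ± 0.11 (SE, edgeR adjusted p = 0.35). Itgae, the αE chain of tissue-resident T cells, was at 4.81 to 5.58 CPM against 7.24 to 9.35 CPM, a log2 fold change of 0.61 ± 0.18 (SE, edgeR adjusted p = 0.32). In both, IFN-γ tumor 3 was the lowest of the treated tumors. The groups did not overlap for 2 subunits that were higher, Itgam and Itgae, and 3 that were lower, beside 7.62% and 7.5% of all genes tested. The lower ones were Itga6, the α6 chain of laminin receptors, at 282.9 to 334 CPM against 242 to 282.5 CPM, Itgav, the αV chain, at 147.3 to 157 CPM against 143 to 146.7 CPM, and Itgb3, its β3 partner, at 12.3 to 14.4 CPM against 9.28 to 11.96 CPM. Their log2 fold changes were -0.28, -0.07 and -0.30 (edgeR adjusted p = 0.38, 0.78 and 0.54).

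Of 18 genes that regulate integrin activation from inside the cell, all were tested, with a median log2 fold change of 0.15, and 2 rose without IFN-γ tumor 3. The list does not separate genes that favor activation from genes that restrain it. Cytip, which regulates integrin adhesion through cytohesin, was at 38.3, 41.2 and 37.1 CPM in the controls and 54.6, 56.3 and 52.1 CPM in the IFN-γ tumors. Its groups were apart with IFN-γ tumor 3 included, at a log2 fold change of 0.48 ± 0.08 with all 6 (SE, edgeR adjusted p = 0.096) and 0.50 without tumor 3 (edgeR adjusted p = 0.022). Rac2, a GTPase of blood cells, was at 75.1 CPM in IFN-γ tumor 3, below every control, and without that tumor it rose by 0.51 on the log2 scale (edgeR adjusted p = 0.028). Fermt3, the kindlin of leukocytes, had a log2 fold change of 0.51 in that fit and did not pass (edgeR adjusted p = 0.064).

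Of 16 other ligands and selectin partners 12 were tested, with a median log2 fold change of -0.17, and Madcam1 and Glycam1, ligands typical of gut and lymph node venules, had at most 1 count in any tumor. Cd44, a hyaluronan receptor of which some glycosylated forms bind E-selectin, was at 575, 554 and 550 CPM in the controls and 402, 419 and 458 CPM in the IFN-γ tumors. It fell without IFN-γ tumor 3, with a log2 fold change of -0.45 ± 0.07 (SE, edgeR adjusted p = 0.020), and had -0.39 ± 0.08 with all 6 (SE, edgeR adjusted p = 0.17). Of 14 junction and transmigration genes 12 were tested, with a median log2 fold change of -0.09. Mcam, an adhesion molecule of vessel walls, was at 87.7 to 97.3 CPM in the controls and 60.2 to 69.2 CPM in the IFN-γ tumors, and it fell without IFN-γ tumor 3, with a log2 fold change of -0.51 (edgeR adjusted p = 0.027).

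Of 13 enzymes that build the sugars of selectin ligands 12 were tested and none passed in either fit, with a median log2 fold change of 0.08. Fut7, the fucosyltransferase that completes sialyl Lewis X on PSGL-1, was at 1.60 to 2.37 CPM in the controls and 3.08, 3.24 and 0.742 CPM in the IFN-γ tumors, with IFN-γ tumor 3 below every control.

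**Figure D4:**
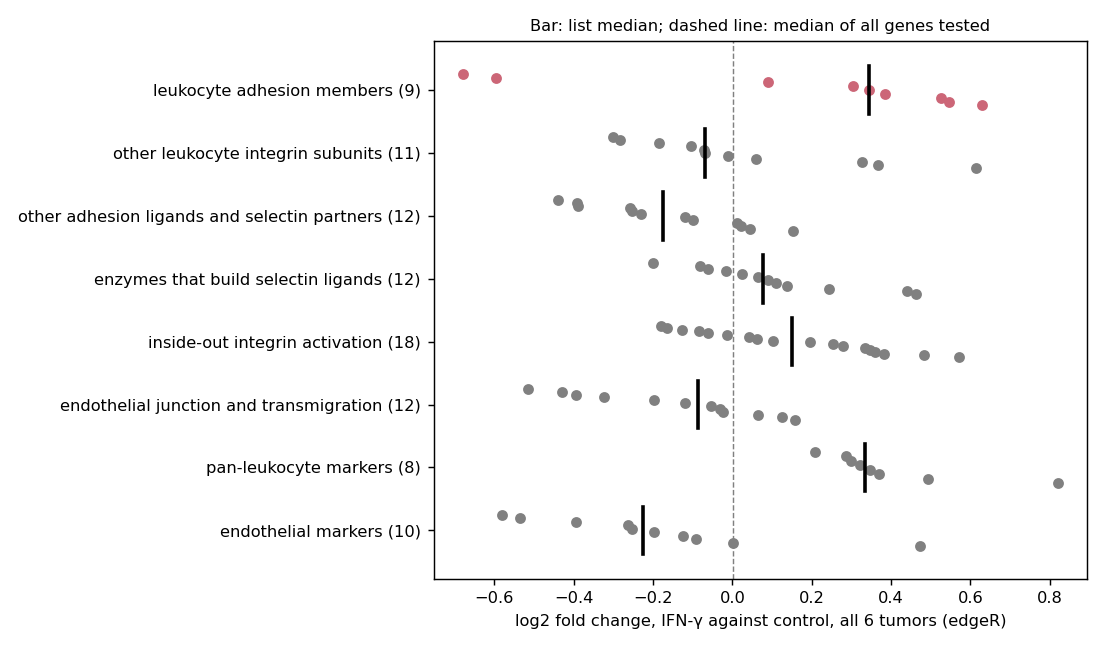
log2 fold change, IFN-γ against control, from edgeR with all 6 tumors, with 1 point for each gene tested in the 9 genes described (red), in the other adhesion lists and in 2 cell marker lists (gray). The bar is the list median, 0.35 for the 9 genes, 0.33 for pan-leukocyte markers and -0.22 for endothelial markers, and the dashed line is the median of all genes tested.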

How the data were processed

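RNA was taken from whole tumors with Trizol and sequenced by the authors. The deposited table holds raw counts per gene for the 6 tumors, from reads aligned, per the submitters' notes, with HISAT2 to mm10. The counting program, strandedness and annotation release are not given in the sources used here, so reads of a gene and an overlapping gene on the other strand cannot be told apart. Reads that match several gene copies may have been dropped or split. The labels give the groups and numbers. Totals were 15759300 to 17559680 counts per tumor, so that 3 counts, taken as the floor, are 0.169 to 0.188 CPM. No pair of libraries agreed within sampling noise, since the smallest chi-square per gene was 6.17.

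The 9 genes and all gene lists (adhesion cascade, IFN-γ response, endothelial activation, clock and 12 sets of cell type markers) were chosen with earlier results of these data known. Genes named were the 9 genes, the partner and reference genes of the ratios, list genes past the threshold in a fit, and those said to be chosen after their values were seen. Itgam, Itgae, Itga6, Itgav, Itgb3, Kdr, Robo4, Egfl7, Vwf, Fermt3 and Fut7 were among the latter. Some genes of the lists are counted but not reported by name here.

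Counts were fitted with edgeR 4.0.16 in R 4.3.3 (TMM, filterByExpr, quasi-likelihood test) on all 15114 genes that passed the filter, with Benjamini-Hochberg adjustment over all of them at 0.05. The SE of a log2 fold change was computed as |log2 fold change|/√F. DESeq2 1.42.0 and limma-voom 3.58.1 were alternatives, as were library-size scaling, no filter, a replicate block and leaving out each tumor. Ratios were tested on the log2 scale, with 0.5 CPM added, by two-sided exact permutation in SciPy 1.17.1. Deviations from the group means correlated at -0.24, -0.0047 and -0.22 between same-numbered tumors, and the numbers were treated as names only. The fits were tested on simulated counts. Gene positions and exon lengths came from GENCODE M21 (GRCm38), which held 99.4% of the gene IDs, and promoter windows from RefSeq (GRCm38.p6).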

Additional observations from a re-analysis of the deposited data

How the results depend on the processing

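With 3 tumors a group and 1 treated tumor that stood apart, which genes passed depended on that tumor. Leaving out each tumor in turn gave 0 to 3 of the 9 genes called higher and 0 to 2 called lower, and 0 to 2 of the 65 other adhesion genes called higher and 0 to 2 lower, with the highest counts without IFN-γ tumor 3. With all 6 tumors, DESeq2 called 0 of the 9 higher and 2 lower and 1 other adhesion gene higher and 2 lower, as did edgeR with no filter on low counts. With the replicate block 0 of the 9 were called higher and 0 lower, and 0 and 0 of the other adhesion genes. Of 108 values of the 9 log2 fold changes under alternatives, 98 kept their direction and side of the threshold, 9 passed only under the alternative and 1 reversed, Icam2 at -0.027 without IFN-γ tumor 1 (range -0.027 to 0.20 over tumors left out). Of 108 values of the ratios 105 kept their direction. The log2 difference of Selplg to Ptprc was -0.093 without IFN-γ tumor 3 (range -0.093 to 0.30). Against the mean of the leukocyte markers, a reference chosen after seeing the data, it was -0.042, and those of Itgb2, Itga4 and Itgal were -0.012, 0.051 and 0.22. Library-size scaling moved the median log2 fold change of all genes by -0.034. The causes were not tested.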

Other observations

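The genes whose level across the 6 tumors was most like each of the 9 were listed by Pearson's r of log2 CPM, with 0.5 CPM added. They were Cd53 and Rps6ka1 for Icam1, D830044D21Rik and Mrc2 for Icam2, H2-Ea and Slc31a2 for Vcam1, Gm4759 and Aoah for Itgal, Snx13 and Asb2 for Itgb2, Exoc4 and Xaf1 for Itga4, Nprl3 and Troap for Sele, Slc35b4 and Cdk10 for Selp, and Ttyh3 and Hgf for Selplg. Each r was 0.98 or higher over 6 tumors, in which 2 treated tumors lie apart from the third, and is a description only.

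Genes of endothelial activation by cytokines had 15 of 17 members tested, with 0 called in all 6 tumors. Without IFN-γ tumor 3 Nfkbia, the NF-κB inhibitor that NF-κB itself induces, rose by 0.43 (log2, edgeR adjusted p = 0.036) and Tnfrsf1b, a receptor for TNF, by 0.40 (edgeR adjusted p = 0.037). Of all genes tested, 2.46% were called higher in that fit. The median log2 fold change of the list was -0.05 with all 6 tumors and 0.07 without IFN-γ tumor 3.

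Markers of other cells of the tumor bed were also read. Of 8 adipocyte markers 0 passed in all 6 tumors. At an unadjusted edgeR p under 0.05, 7 were higher (5.74% of all genes), and these 7 were higher in all 3 IFN-γ tumors than in any control (7.62%). Without IFN-γ tumor 3, 5 rose (2.46%), and the median log2 fold change was 2.07 with all 6. None of 6 skeletal muscle, 6 fibroblast, 4 tested B cell and 1 tested keratinocyte marker passed in either fit, and the keratinocyte sum was 70.4 CPM in IFN-γ tumor 3 and at most 12.5 CPM elsewhere. Of the neutrophil markers 0 passed in all 6 tumors and Csf3r rose without IFN-γ tumor 3, and of the 4 colon epithelial markers tested Krt20 fell in that fit. Of 8 clock genes tested, edgeR's test with all 6 tumors called 6 higher and 1 lower, beside 0.112% of all genes called. All 3 IFN-γ tumors were above every control for 7 and below every control for 1, beside 7.62% and 7.5% of all genes. This difference between the groups cannot be told apart from IFN-γ treatment, and its part in the adhesion gene levels was not tested.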
